A study of Drosophila melanogaster with 6 samples.

Results

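The Cpr genes encode cuticle proteins of the Rebers-Riddiford family, and their transcripts were examined here in adult male Drosophila melanogaster taken 12 h after injection of M. luteus. Members were all genes of the deposited count table whose symbol is Cpr followed by a cytological position, which gave 70 of 17558 gene identifiers. Cpr itself, the gene of the cytochrome P450 reductase, carries no position and is not a member. The data are 3 RNA-seq libraries of CR11538-overexpressing flies (Gal80ts; Tub>CR11538) and 3 libraries of control flies (Gal80ts; Tub-Gal4/P{CaryP}attP40), and both genotypes carried the Gal80ts and Tub-Gal4 elements and received M. luteus. The comparison asks which transcripts differ between flies with and without the extra lncRNA-CR11538 during an infection with a Gram-positive bacterium, and no uninfected library is among the 6. The transgene had been placed at the attP40 site, which the control flies carried without it. The tubulin promoter drives Gal4 in nearly all tissues, and Gal80ts, a temperature-sensitive repressor, holds Gal4 inactive until the temperature is raised. The study's methods state that the transgenic crosses were reared in the cool and moved to a warm incubator before the experiments. The same step for the control flies is not spelled out there. For the age of the adult males the methods give only a collection over a span of days. The libraries were made from adult flies, with no dissection named in the labels, and the labels do not say how many flies were pooled. The methods describe the replicates of the study's experiments in general as independent biological ones, while the labels of these libraries do not say whether they were separate cultures, and the p-values rest on the spread between these libraries.

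The insect cuticle is a composite of chitin fibres and proteins that epidermal cells secrete at their outer face. Rebers-Riddiford proteins are its largest protein family, and they hold a conserved motif through which they bind chitin. Their genes are switched on and off in short windows around each moult under the control of ecdysone and of the nuclear receptors that act after it, so that larvae, pupae and adults use different sets. The adult fly goes on adding layers of cuticle after it leaves the pupal case, and some members are used in special structures such as the corneal lens of the eye. For most single members no function beyond membership of the family is known.

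The libraries held 17040432 to 19652500 counts each, and 13159 genes passed the filter on low counts. lncRNA-CR11538 had 2291, 3358 and 3312 counts in the overexpressing libraries against 5, 2 and 5 in the control libraries, which matches the labels. Male markers were present in every library, with summed normalized counts (read counts scaled for library size and composition by TMM) of 31320 to 36519 in the overexpressing and 23605 to 29238 in the control libraries for 4 accessory gland genes, whereas 4 ovary genes together stayed between 4.95 and 9.66. Along the first principal component, with 68.8% of the variance, the genotypes lay apart. Replicates 1 and 3 of the overexpressing flies stood farthest apart within a genotype, at 23.8 and -21.4 on the second component (11.5% of the variance), so results are also given without single libraries where that changed them.

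Many Cpr genes gave no or few reads in these adult flies. Of the 70 members, 9 had no count in any of the 6 libraries, and a further 12 had between 2 and 9 counts in all. The members without a count were Cpr12A on the X chromosome, Cpr57A on 2R, and Cpr65Aw, Cpr65Ax1, Cpr65Ax2, Cpr65Ay, Cpr67Fa1, Cpr67Fb and Cpr78Cb on 3L. These were 12.9% of the members, while 9.16% of all gene identifiers had no count. A count of 0 allows a share of up to 1.53e-05% of the deepest and 1.76e-05% of the shallowest library, with 3 counts as the limit, and limits and intervals given here cover counting error only. Cpr65Ax1, Cpr65Ax2, Cpr67Fa1 and Cpr67Fa2 bear the numbers of duplicated genes, and whether reads that match several genes were counted is not given in the sources used here. Another 9 members had 15 to 56 counts in all, never more than 20 in a library, and fell below the filter. In the end 40 members, 57.1%, were compared between the genotypes, against 74.9% of all gene identifiers. On 3L, 15 of 35 members had under 10 counts, as had 2 of 5 on 2L and 2 of 4 on the X chromosome, compared with 2 of 21 on 2R and 0 of 5 on 3R.

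**Figure D1:**
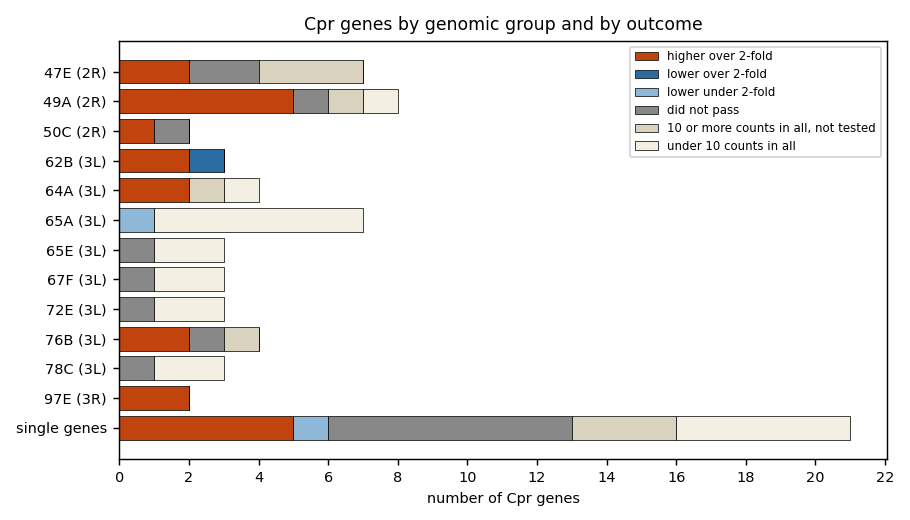
Number of Cpr genes (x axis) in each genomic group (y axis, with the chromosome arm), split by outcome of the comparison of CR11538-overexpressing with control flies. The 49A cluster holds 5 genes that were higher over 2-fold, while 6 of the 7 genes of the 65A cluster had under 10 counts in all 6 libraries together.

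Nearly all Cpr genes that changed were upregulated in the CR11538-overexpressing flies. The genotypes were compared gene by gene with edgeR's quasi-likelihood test, with p-values adjusted over all tested genes, and upregulated is used below for genes past an adjusted p of 0.05 and a 2-fold difference. Of the 40 tested members, 21 were higher by more than 2-fold at an adjusted p under 0.05, 1 was lower by more than 2-fold, 2 were lower by less than 2-fold and 16 did not pass the test. Among all tested genes 3.43% were higher and 1.23% lower past both thresholds. Without a fold threshold the members gave 21 higher and 3 lower genes, where 15.0% of all tested genes were higher and 14.2% lower. In 21 members every overexpressing library lay above every control library, against 21.8% of all tested genes, and these were the same 21 members. In 3 members every overexpressing library lay below every control library, against 23.3% of all tested genes. The filter itself bears on these counts, because 10 of the 21 had fewer than 3 control libraries at the level that the filter requires and therefore passed through the overexpressing libraries. Counted over every identifier in the table instead, 21 of the 70 members were upregulated, as were 2.57% of all 17558 genes. With no filter, none of the 21 low members with at least 1 count passed edgeR's test after adjustment, and 3 had an unadjusted p under 0.05. The upregulated members had log2 fold changes from 1.17 to 7.64, and those that did not pass lay between -0.36 and 0.70. Since whole flies were sequenced, more cells that make a transcript and more transcript per cell cannot be told apart.

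**Figure D2:**
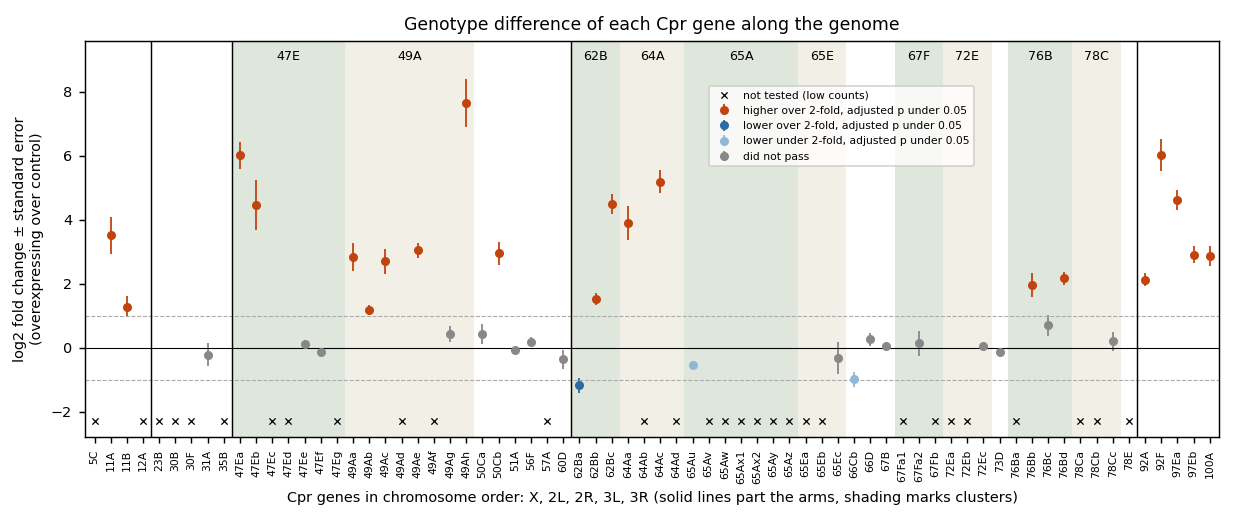
Log2 fold change of each Cpr gene, CR11538-overexpressing over control (y axis, points with standard errors), for the 70 genes in chromosome order (x axis). Shading marks clusters of 3 or more genes, dashed lines mark a 2-fold difference and crosses mark the 30 genes that were not tested. The upregulated genes, at 1.17 to 7.64, stand beside genes near 0 in the same clusters.

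By position, the members fell into 10 clusters of at least 3 genes with no more than 50 kb between neighbours, 2 pairs and 21 single genes. The clusters held 45 members, of which 23 were tested and 13 upregulated. All 4 genes of the pairs were tested and 3 rose, and of the single genes 13 were tested and 5 rose. By chromosome arm, 8 of 15 tested members rose on 2R, 6 of 17 on 3L, 5 of 5 on 3R and 2 of 2 on the X chromosome, which holds 4 members. Among all tested genes of all arms 3.43% were upregulated, and shares by arm were not counted. The filter bears on these counts too, since 10 of the 21 upregulated members, Cpr11A on the X chromosome among them, passed it through the overexpressing libraries. No difference between arms or groups was tested. The lone tested member on 2L, Cpr31A, had a log2 fold change of -0.22 that did not pass (edgeR adjusted p = 0.699), with 13.2, 22.8 and 14.5 normalized counts in the overexpressing and 13.7, 18.7 and 26.8 in the control libraries.

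The 49A cluster on 2R, at 12376626 to 12415170 of dm6, is the largest with 8 genes, 7 of them on the plus strand, and it held the most abundant member. Of its 6 tested genes 5 were upregulated. Cpr49Ae had 25318, 18381 and 12487 normalized counts in the overexpressing libraries and 2734, 2042 and 2013 in the control libraries. The lowest overexpressing library thus lay far above the highest control library, and the log2 fold change was 3.05 (standard error, SE, 0.24, edgeR adjusted p = 5.59e-05). Its neighbour Cpr49Ab had 9190, 6942 and 5477 normalized counts against 3316, 3161 and 3140. The difference in Cpr49Ab was the smallest of the upregulated members, with a log2 fold change of 1.17 (SE 0.16, adjusted p = 0.000748), or 0.96 without replicate 1 of the overexpressing flies, which is under 2-fold. Cpr49Ah, at the far end of the cluster, showed the largest change of the family. Its normalized counts were 241, 151 and 86.2 in the overexpressing libraries against 0, 0 and 2.15 in the control libraries, so it was almost unread in control flies. With 478 raw counts in all against 2, the overexpressing flies had a normalized ratio of 235 (95% exact binomial interval 64.7 to 1947). The fitted log2 fold change was 7.64 (SE 0.75, adjusted p = 0.000131), and 10.33 without control replicate 3, which holds both control reads.

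Cpr49Aa and Cpr49Ac, which lie on either side of Cpr49Ab, rose from low levels as well. Cpr49Aa had 90.6, 69.3 and 52.3 normalized counts against 18.5, 4.91 and 5.37, and its log2 fold change of 2.85 (SE 0.44, adjusted p = 0.00158) was 3.75 without control replicate 1. Cpr49Ac had 210, 180 and 108 against 37.1, 29.5 and 8.59, a log2 fold change of 2.70 (SE 0.39, adjusted p = 0.00110). Between these genes and Cpr49Ah, which all share the plus strand, lies Cpr49Ag, whose libraries overlapped. It had 70.3, 112 and 77.5 normalized counts against 83.9, 50.1 and 60.1, and did not pass at a log2 fold change of 0.42 (adjusted p = 0.239). The remaining genes of the cluster, Cpr49Ad and Cpr49Af, had no more than 9 counts in any library. The cluster as a whole summed to 35126, 25839.9 and 18299.9 normalized counts against 6199.5, 5292 and 5237.

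The 47E cluster on 2R (11251751 to 11278445) divided into genes that rose and genes that did not. Cpr47Ea had 617, 475 and 297 normalized counts in the overexpressing libraries against 9.75, 9.82 and 1.07 in the control libraries, with no overlap and a log2 fold change of 6.01 (SE 0.43, adjusted p = 3.54e-05). The annotation places exons of the odorant receptor gene Or47a on the opposite strand over part of Cpr47Ea, and if strand was ignored in counting, their reads were not told apart. The next gene, Cpr47Eb, had 35.6, 16.8 and 44.5 normalized counts against 0, 3.93 and 0. Its log2 fold change was 4.47 (SE 0.79, adjusted p = 0.00290), or 8.02 without control replicate 2, which holds all of its control reads, and the ratio of summed counts was 24.1 (95% exact binomial interval 9.12 to 90.2). By contrast Cpr47Ef, the most abundant gene of this cluster with 17 annotated exon blocks, had 1227, 1280 and 1088 normalized counts against 1294, 1482 and 1202 (log2 fold change -0.15, SE 0.09, adjusted p = 0.264). Cpr47Ee likewise overlapped between the genotypes, with 144, 134 and 122 against 124, 114.9 and 132. Cpr47Ef made up most of the reads of the cluster, which summed to 2042, 1921 and 1573 normalized counts against 1442, 1622 and 1342.

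The 62B cluster on 3L (1824129 to 1842084) holds 3 genes in a row on the minus strand, and they moved in both directions. Cpr62Bc rose to 2497, 2266 and 1270 normalized counts in the overexpressing libraries, against 128, 82.5 and 54.8 in the control libraries (log2 fold change 4.50, SE 0.31, adjusted p = 3.38e-05). Cpr62Bb rose to 915, 711 and 533 against 252, 280 and 222, a smaller log2 fold change of 1.52 (SE 0.18, adjusted p = 0.000423). The third gene, Cpr62Ba, is the sole member that fell by more than 2-fold. It had 30.5, 32.7 and 44.5 normalized counts against 96.5, 62.8 and 85.9, so that every overexpressing library lay below every control library, and its log2 fold change was -1.18 (SE 0.24, adjusted p = 0.00592).

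In the 64A cluster on 3L (4207838 to 4216414), both tested genes rose from a few reads. Cpr64Ac had 191, 260 and 152 normalized counts against 3.90, 8.84 and 3.22 (log2 fold change 5.19, SE 0.35, adjusted p = 2.65e-05). Cpr64Aa had 57.0, 72.3 and 27.1 against 4.88, 1.96 and 3.22 (log2 fold change 3.90, SE 0.52, adjusted p = 0.000727). Unlike most upregulated members, these genes were highest in replicate 2 of the overexpressing flies. Cpr64Ab and Cpr64Ad, of the same cluster, had no more than 10 counts in any library. The 76B cluster on 3L (19517552 to 19538289) was carried by Cpr76Bd, the member with the longest exon sequence (4525 bp), which had 2220, 2020 and 1300 normalized counts against 502, 341 and 383 (log2 fold change 2.17, SE 0.20, adjusted p = 0.000122). Cpr76Bb was also upregulated, at 27.5, 25.7 and 18.4 against 4.88, 7.86 and 5.37 (log2 fold change 1.96, adjusted p = 0.00429). Between them lies Cpr76Bc, which had 19.3, 26.7 and 31.0 against 19.5, 10.8 and 17.2 and did not pass (log2 fold change 0.70, adjusted p = 0.144).

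The remaining clusters, all on 3L, gave 1 measurable gene each, and none of these 5 genes rose. In the 65A cluster (6131242 to 6161589) only Cpr65Au, the most abundant member per length in control flies, was read at more than a few counts. Cpr65Au had 2192, 1443 and 1544 normalized counts in the overexpressing libraries against 2506, 2471 and 2573 in the control libraries. It fell by 0.54 on the log2 scale (SE 0.13, adjusted p = 0.0150), and did not pass without replicate 2 of the overexpressing flies (adjusted p = 0.0519) or without control replicate 2 (0.0517) or 3 (0.0541). The antisense gene CR46005 shares exon sequence with Cpr65Au on the other strand. Acp65Aa, an adult cuticle gene with the same motif that lies between Cpr65Ax2 and Cpr65Ay but does not bear a Cpr name, had 8727, 6940 and 5053 normalized counts against 55.6, 31.4 and 12.9 (log2 fold change 7.67, adjusted p = 5.07e-06). Among the Cpr genes of this cluster, which spans about 30.3 kb, 1 was thus somewhat lower and 6 had under 10 counts. The other 65A genes on the list of Rebers-Riddiford genes without a Cpr name, Lcp65Aa to Lcp65Ag3, had at most 14 counts in any library and were not tested.

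In the 72E cluster (16362603 to 16367340) Cpr72Ec, a protein of the corneal lens, had 1658, 1603 and 1823 normalized counts against 1467, 1567 and 1844. The libraries of the genotypes overlapped, and the log2 fold change was 0.06 (SE 0.09, adjusted p = 0.661). The tested genes of the 65E, 67F and 78C clusters had lower counts and did not pass. Cpr65Ec had 11.2, 11.9 and 7.75 normalized counts against 5.85, 21.6 and 10.7, and its log2 fold change of -0.31 was 0.32 without control replicate 2. Cpr67Fa2 had 10.2, 10.9 and 14.5 against 6.83, 13.7 and 11.8 (log2 fold change 0.14, SE 0.39, adjusted p = 0.822). Cpr78Cc had 26.5, 42.6 and 32.9 against 27.3, 24.6 and 37.6 (log2 fold change 0.19, SE 0.29, adjusted p = 0.650).

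All 5 members on 3R were upregulated, although they lie far apart along the arm except for the 97E pair. Cpr92F (20669571 on 3R) had 8143, 5549 and 3390 normalized counts in the overexpressing libraries against 170, 55.0 and 33.3 in the control libraries. This was a log2 fold change of 6.03 (SE 0.50, adjusted p = 6.82e-05), or 6.99 without control replicate 1, the highest control library. The pair at 97E (27083130 to 27091130) rose in both genes. Cpr97Ea had 604, 527 and 299 normalized counts against 22.4, 16.7 and 18.3 (log2 fold change 4.63, SE 0.31, adjusted p = 2.65e-05). Cpr97Eb had 1601, 1202 and 717 against 159, 159 and 150 (log2 fold change 2.91, SE 0.26, adjusted p = 9.99e-05). Near the end of the arm, Cpr100A had 2376, 1694 and 1115 against 325, 225 and 156 (log2 fold change 2.87, SE 0.30, adjusted p = 0.000211). Cpr92A rose to 257, 230 and 174 against 60.5, 50.1 and 39.7, a log2 fold change of 2.13.

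The 50C pair on 2R and the X-linked genes were less abundant. Cpr50Cb had 76.4, 65.4 and 40.7 normalized counts against 9.75, 7.86 and 5.37 (log2 fold change 2.96, SE 0.36, adjusted p = 0.000471), while the libraries of its partner Cpr50Ca overlapped at 40.7, 38.6 and 37.8 against 24.4, 19.6 and 44.0. Cpr11A had 17.3, 20.8 and 23.2 against 1.95, 2.95 and 0, a log2 fold change of 3.51 (SE 0.58, adjusted p = 0.00202), or 4.17 without control replicate 2. Cpr11B had 42.8, 45.5 and 25.2 against 16.6, 17.7 and 11.8, a log2 fold change of 1.29 (SE 0.33, adjusted p = 0.0162). Cpr11B did not pass without replicate 2 of the overexpressing flies (adjusted p = 0.0646) or without control replicate 3 (0.0614).

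**Figure D3:**
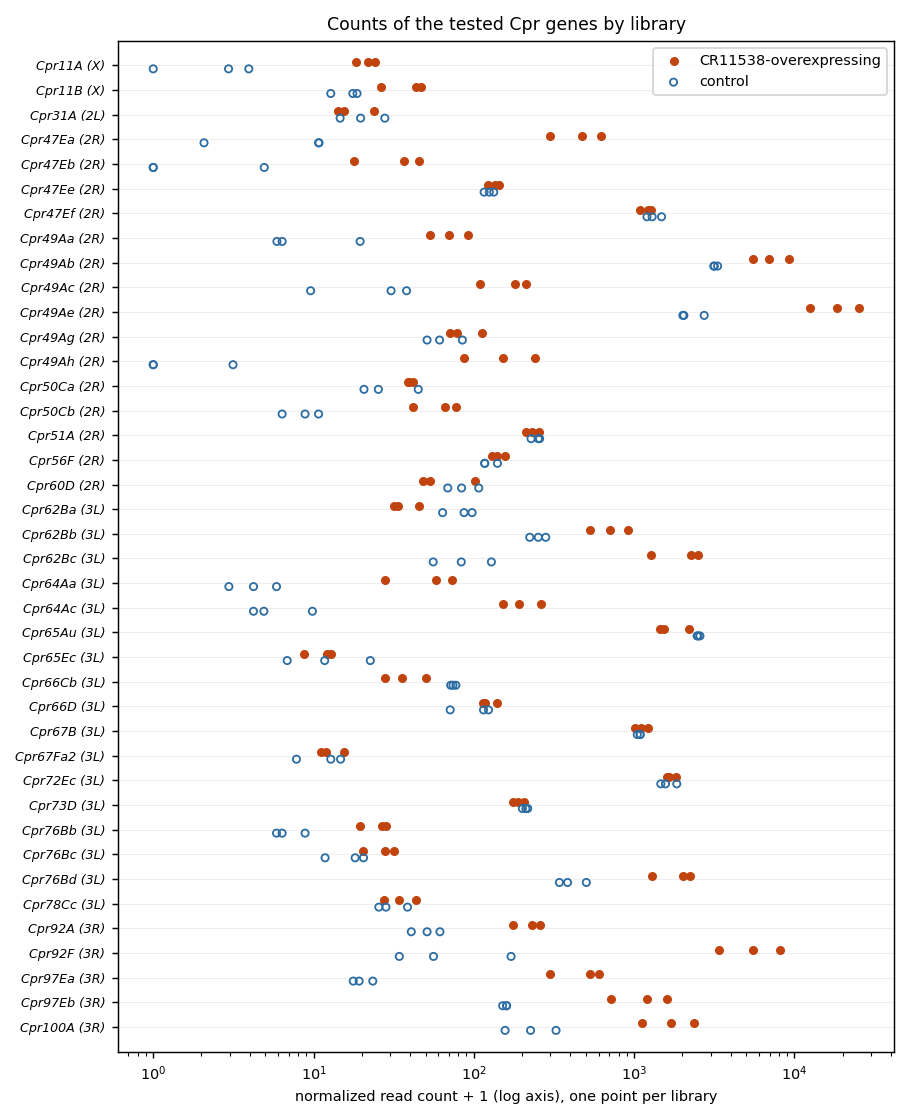
Normalized read count plus 1 of the 40 tested Cpr genes (x axis, log scale), with 1 point per library and the chromosome arm in brackets. Filled points are the 3 CR11538-overexpressing libraries and open points the 3 control libraries. For 21 genes all filled points lie to the right of all open points, and for Cpr62Ba, Cpr65Au and Cpr66Cb they lie to the left. Over all tested genes these shares were 21.8% and 23.3%.

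Among the single genes that did not pass were several of the well-read members. Cpr67B had 1216, 1110 and 1018 normalized counts in the overexpressing libraries against 1090, 1045 and 1089 in the control libraries (log2 fold change 0.05, SE 0.07, adjusted p = 0.640). Cpr51A had 230, 210 and 256 against 252, 256 and 227 (log2 fold change -0.08, SE 0.11, adjusted p = 0.630). For these genes, as for Cpr47Ef and Cpr72Ec, the standard error was 0.11 or less on the log2 scale, so they were measured more precisely than most members. Cpr66D, the other corneal lens protein of the family, had 116, 139 and 113 against 70.2, 114 and 122 (log2 fold change 0.27, adjusted p = 0.367). Cpr73D, whose exons overlap those of Ogdh on the opposite strand, had 206, 188 and 173 against 200, 210 and 216. Cpr60D had 101, 47.5 and 52.3 against 82.9, 67.8 and 106, and its log2 fold change of -0.36 (adjusted p = 0.403) became -0.77 (adjusted p = 0.0358) without replicate 1 of the overexpressing flies. Cpr66Cb was lower by just under 2-fold, at 34.6, 26.7 and 49.4 against 73.1, 70.7 and 76.2 (log2 fold change -0.99, SE 0.24, adjusted p = 0.0129).

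To compare the members with each other, normalized counts were divided by the exon length of the gene in kb. In the control flies Cpr65Au was the highest (4784 normalized counts per kb), followed by Cpr49Ab (3763), Cpr49Ae (1908), Cpr72Ec (1124) and Cpr67B (1064). Cpr72Ec and Cpr67B, adjacent in this ranking but not in the genome, did not differ beyond their spread. In the overexpressing flies Cpr49Ae came first (15791 per kb), ahead of Cpr49Ab (8454), Cpr65Au (3282), Cpr92F (3065) and Cpr62Bc (1773). Cpr92F moved to rank 4 in the overexpressing flies, against rank 22 in control flies, and Cpr62Bc to rank 5 against rank 18. Of the summed level per kb of all members, Cpr49Ae took 37.3 ± 2.53% in the overexpressing flies against 12.3 ± 1.77% in control flies (SD, n = 3 each). The share of Cpr65Au was 8.01 ± 1.49% against 30.9 ± 1.25%, and that of Cpr49Ab, although its level rose, was 20.3 ± 0.66% against 24.3 ± 0.24%. As these shares add up to the whole, a rise in one lowers the others.

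**Figure D4:**
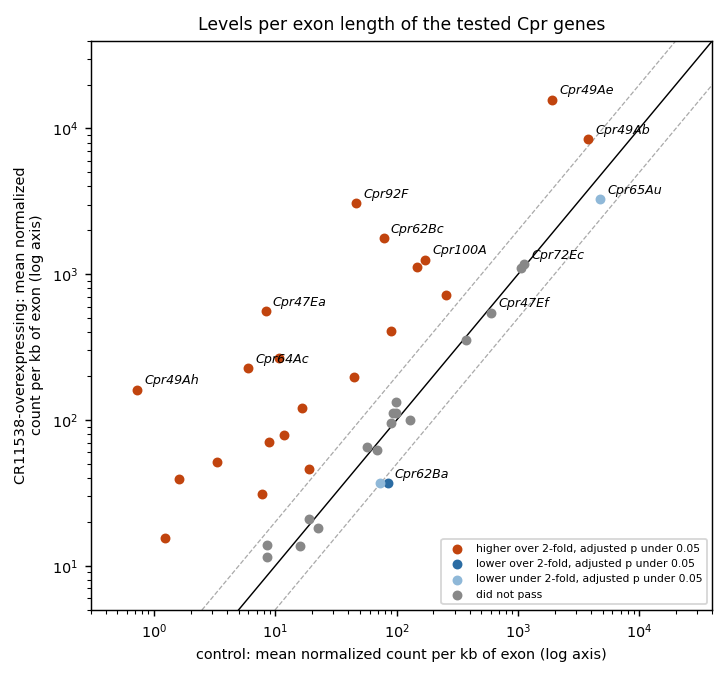
Mean normalized count per kb of exon of the 40 tested Cpr genes in CR11538-overexpressing flies (y axis, log scale) against control flies (x axis, log scale), coloured by outcome. The solid line marks equal levels and the dashed lines a 2-fold difference. Cpr49Ae lies at 15791 against 1908, and Cpr72Ec, at 1171 against 1124, lies on the line of equal levels.

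In length and exon number the members that rose and those that did not pass overlapped. The exon sequence of the 21 upregulated members had a median of 1014 bp (584 to 4525) in 1 to 6 exon blocks, and that of the 16 members that did not pass had a median of 1167 bp (522 to 3427) in 1 to 17 blocks. As a family the members were short, with a median of 863 bp against 1746 bp over all tested genes. The control means of the upregulated members lay between 0.72 and 3206 normalized counts. They are not set against those of the members that did not pass, since a gene with few control counts could be tested only where it was high in the overexpressing flies.

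The upregulated members varied together among the overexpressing libraries. Their summed normalized counts were 54727, 40904 and 27637 in replicates 1, 2 and 3 of the overexpressing flies, against 7775, 6507 and 6257 in those of the control flies. All other members together had 7582, 6674 and 6712 against 7632, 7781 and 8039. Replicate 1 of the overexpressing flies was the highest of the 3 for 16 of the 21 upregulated members, and replicate 3 the lowest for 19. Over all 451 upregulated genes replicate 1 was the highest in 52.3%. The ratio of replicate 1 to replicate 3 had a median of 1.88 over these members, 1.05 over the 16 that did not pass and 1.39 over all 451 upregulated genes. Cpr49Ah had the highest such ratio, 2.80, whereas Cpr11A and Cpr47Eb, with few reads, had 0.74 and 0.80. The spread in the overexpressing flies was thus wide, as for Cpr49Ae (18729 ± 6422 against 2263 ± 408 normalized counts, SD, n = 3 each), but the groups stayed apart.

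**Figure D5:**
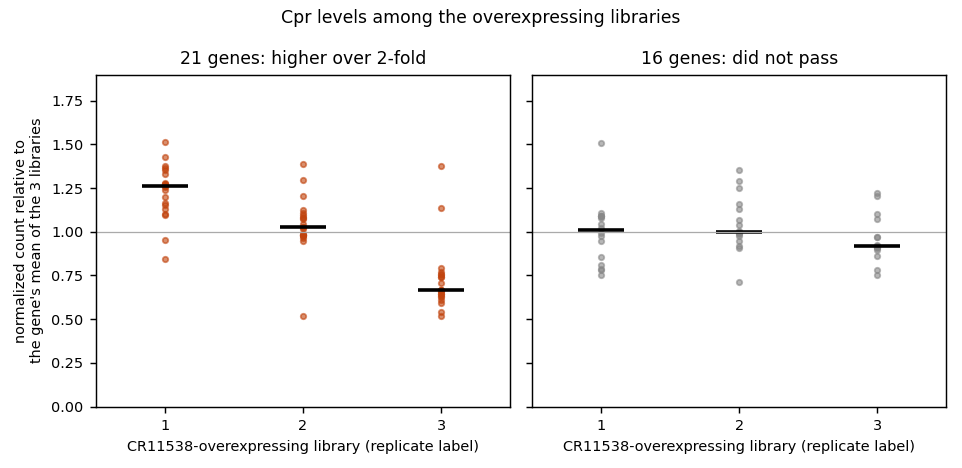
Normalized count of each Cpr gene relative to its mean over the 3 CR11538-overexpressing libraries (y axis), by replicate label (x axis), for the 21 upregulated genes (left) and the 16 genes that did not pass (right). Points are genes and black bars are medians. For the upregulated Cpr genes replicate 1 was highest in 16 and replicate 3 lowest in 19, and replicate labels have no order of their own. Over all 451 upregulated genes replicate 1 was highest in 52.3%.

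Other genes of cuticle formation were looked at for comparison, in lists written with earlier results of these data known. Of 27 Rebers-Riddiford genes without a Cpr name, 10 were tested, and 8 of these were higher and 0 lower at any fold (0 lower with DESeq2 or at an unadjusted p under 0.05 either), where 15.0% of all tested genes were higher and 14.2% lower. With so few genes tested, the count of 0 says little about falls. Apart from Acp65Aa they included Ccp84Aa, Ccp84Ab, Ccp84Ac and Ccp84Ad of the 84A cluster, with log2 fold changes of 3.32, 2.73, 0.83 and 2.60. In the same cluster Ccp84Ag did not pass at a log2 fold change of -0.46, and Ccp84Ae and Ccp84Af were not tested. Crys, which encodes crystallin of the corneal lens, had 589, 544 and 471 normalized counts against 157, 171 and 98.8 (log2 fold change 1.903, adjusted p = 0.000117), unlike Cpr72Ec and Cpr66D. The lens gene retinin, which is not a Rebers-Riddiford gene of this list, did not pass either. It had 10966, 9992 and 7804 normalized counts against 8888, 8649 and 8608 (log2 fold change 0.14, adjusted p = 0.394). The median log2 fold change of the 40 tested Cpr genes was 1.23 and that of the 10 tested Rebers-Riddiford genes without a Cpr name 1.999, beside -0.01 over all tested genes. The filter raises the median of the Cpr genes, because 10 of the 40 were tested only through their counts in the overexpressing libraries. It bears on the count and median of the other Rebers-Riddiford genes too. Of these, Lcp1 had 13, 8 and 6 raw counts in the control libraries and Pcp 5, 16 and 10.

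Of 15 tested genes that make and shape chitin, 9 were higher, 2 lower and 4 did not pass. The share of lower genes was near the 14.2% of all tested genes, and that of higher genes was above the 15.0%. The chitin synthase gene kkv had 1110, 1037 and 678 normalized counts against 247, 225 and 236 (log2 fold change 1.995, adjusted p = 7.70e-05). The chitin-binding protein gene Gasp and the deacetylase gene verm had log2 fold changes of 1.56 and 1.76, and exp, a gene needed for tracheal cuticle, 2.83. The 2 lower genes were obst-E, which encodes a chitin-binding protein (log2 fold change -0.55), and Idgf6, of the chitinase-like family (-0.51). Of 8 tanning genes, which colour and harden cuticle, 7 were higher and none lower (none with DESeq2 or at an unadjusted p under 0.05 either), 1 of them by more than 2-fold. This was y, which acts in black pigmentation, with 257, 217 and 143 normalized counts against 16.6, 5.89 and 22.6 (log2 fold change 3.78). The tyrosine hydroxylase gene ple, e and yellow-e had log2 fold changes of 0.79, 0.97 and 0.63.

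Regulators known to time cuticle gene expression were counted as well. Of 15 tested genes none was higher with edgeR or, among the same 15, with DESeq2 (1 at an unadjusted p under 0.05), 4 were lower and 11 did not pass. These 4 are read beside the 14.2% of all tested genes that were lower at any fold, and with 15 genes the count does not set the regulators apart. The lower genes were vri, a transcription factor gene that answers to ecdysone (log2 fold change -0.63, adjusted p = 0.000353), usp, which encodes the partner of the ecdysone receptor (-0.46), and the ecdysone-induced genes Eip75B (-0.43) and Eip93F (-0.37). ftz-f1, the nuclear receptor gene best known for pupal cuticle genes, did not pass, with a log2 fold change of -0.17 and an adjusted p of 0.164.

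Markers of several other tissues and of earlier stages also differed between the genotypes. Marker genes are counted at any fold, where 15.0% of all tested genes were higher and 14.2% lower. All 6 genes of larval and pupal fat body (Lsp1alpha, Lsp1beta, Lsp1gamma, Lsp2, Fbp1 and Fbp2) were higher, with summed normalized counts of 10521, 8955 and 4718 in replicates 1, 2 and 3 of the overexpressing flies against 771, 319 and 164 in those of the control flies. Lsp2 runs antisense to lncRNA-CR11538, so that its reads may not be separate from those of the transgene. The 3 flight muscle genes Act88F, fln and TpnC4 were higher too, at 48015, 39076 and 24181 in sum against 12514, 10593 and 9295. In both lists replicate 1 was the highest and replicate 3 the lowest overexpressing library, the same as in the summed upregulated Cpr genes. The 5 photoreceptor genes summed to 40167, 50390 and 60832 against 52077, 53232 and 51528, with replicate 1 the lowest overexpressing library. No marker of the fat body and muscle lists named so far was at 0.

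Counts in the other marker lists too are read beside the 15.0% of all tested genes that were higher and the 14.2% that were lower at any fold. All 6 genes listed for adult cuticle-secreting epidermis (Acp65Aa, kkv, Gasp, verm, serp and ple) were higher, 5 of them by more than 2-fold. Their sums were 21879, 18211 and 13462 in the overexpressing against 4096, 4335 and 3786 in the control libraries. These genes are also in the cuticle lists above, so this is no separate result. In the lists that follow, some genes were lower or did not pass. Of 4 hemocyte genes 3 were higher, with sums of 9964, 10560.3 and 9208 in the overexpressing against 7501, 7170 and 7383 in the control libraries. Of 5 tested adult fat body genes 2 were higher and 2 lower. Lsd-1, a lipid droplet gene, had 7585, 5954 and 4851 normalized counts against 2941, 2551 and 2380.5 (log2 fold change 1.22, adjusted p = 0.000467), and apolpp, the gene of the main lipoprotein, 54420, 41278 and 26669 against 28641, 20237 and 21692 (log2 fold change 0.79). In both genes replicate 1 was again the highest and replicate 3 the lowest overexpressing library. The yolk protein gene Yp3 went the other way, with 213, 259 and 314 against 1170, 1100 and 1146 (log2 fold change -2.12), and to had a log2 fold change of -0.67. Of 4 midgut genes 2 were higher, Jon99Ci with a log2 fold change of 1.86 and epsilonTry with 0.60, and Jon65Aiii was lower at -0.43. In the accessory gland and testis lists 2 of 4 genes each were higher, by less than 2-fold. The part of these tissues in the difference between the genotypes was not tested.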

How the data were processed

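Per the labels, mRNA was selected on poly-T beads and read from both ends. The values deposited by the authors are raw counts per gene, made with HISAT2 2.0.5 and featureCounts 1.5.0-p3 on dm6, neither normalized nor pooled. Not given in the sources used here are the strand setting, the treatment of reads with several matches and the annotation release. Symbols, positions and exon lengths were read from the dm6 annotation of Ensembl release 115, which named 17252 of 17558 identifiers and all 70 Cpr genes. Exon length is the union of annotated exons. No genome or protein sequence was used here, so planned descriptions of promoter motifs and protein domains were not made.

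Counts were filtered with filterByExpr at its default settings, scaled by TMM and fitted with edgeR 4.0.16 (R 4.3.3) on genotype alone (4 residual degrees of freedom). Quasi-likelihood p-values were adjusted after Benjamini-Hochberg over the 13159 tested genes, and every adjusted p in the text comes from this test unless another tool is named. Called genes passed 0.05 after adjustment and differed by more than 1 on the log2 scale. Log2 fold changes include edgeR's shrinkage. Standard errors are the unshrunken coefficient over the root of F. Normalized counts are TMM-scaled. The scripts were tested on simulated counts. Replicate libraries differed by more than sampling noise, at 6.95 to 7.86 in chi-square per gene among the control and 12.9 to 35.6 among the overexpressing libraries. They were therefore not taken as copies of one library, and all 6 were used.

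The members and gene lists were chosen with earlier results of these data known. Genes were named by a rule: the 10 largest rises and all falls among called members averaging 20 or more normalized counts, the 8 highest per kb, the highest and the most changed gene of each cluster, the 4 highest that did not pass, and up to 4 genes per list. Other members were named after their values were seen. Not found by symbol were br and stw. Alternatives were DESeq2 1.42.0, other scalings, other filters, a replicate block, each library left out, glmTreat and a gap of 10 kb between cluster neighbours.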

Additional observations from a re-analysis of the deposited data

How the results depend on the processing

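The same 21 upregulated Cpr genes were called with DESeq2, in edgeR with DESeq2 size factors or with library size alone, with either other filter on low counts and with the replicate block. Leaving out single libraries gave 20 to 22, losing Cpr49Ab without replicate 1 of the overexpressing flies and Cpr11B without replicate 2 of those or control replicate 3, and gaining Cpr23B, which had 15, 13 and 4 counts against 2, 4 and 5, without replicate 3 of the overexpressing flies. A test against a fold of 2 (glmTreat) kept 17 of the 21, without Cpr11B, Cpr49Ab, Cpr62Bb and Cpr76Bb, and called none lower, and over all genes it called 186 higher and 24 lower, against 451 and 162. The count of members lower by more than 2-fold, 1 in the analysis above, was 2 with library size alone, 2 with the replicate block and 1 to 2 without single libraries, as Cpr66Cb lies near the threshold. Among the regulators, DESeq2 called 1 gene higher, which the filter had removed before the edgeR test, and leaving out single libraries gave 0 to 1. The other Rebers-Riddiford genes gave 0 to 1 lower gene without single libraries. The median log2 fold change of the tested Cpr genes ran from 1.07 to 1.42 without single libraries, and no scaling moved the median of all genes beyond -0.02. With a largest gap of 10 kb there were 11 clusters instead of 10, and with a limit of 30 counts 25 members with few counts instead of 21. For 12 members with 2 to 9 counts and 9 with 15 to 56, depth limits what can be said.

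The replicate numbers were checked for pairing. Deviations from the group mean correlated at 0.13, 0.03 and 0.07 between libraries that share a number, and control replicate 2 correlated best with replicate 3 of the overexpressing flies, so the numbers were not taken as pairs. With the replicate block the count of upregulated members was 21, as without it.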

Other observations

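RefSeq lists CG34461 and CG34462 under the older name Cpr66Ca, so that they fall outside the Cpr symbols. CG34461 had 51.9, 64.4 and 47.4 normalized counts in the overexpressing libraries against 7.80, 5.89 and 6.44 in the control libraries, a log2 fold change of 2.998 (standard error 0.30, edgeR adjusted p = 0.000168). CG34462 had 82.5, 69.3 and 62.0 against 64.4, 47.1 and 38.7, a log2 fold change of 0.50 that did not pass (adjusted p = 0.129). Both genes were chosen after their values were seen.

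Summed over the 70 members, normalized counts were 62309, 47577 and 34349 in the overexpressing libraries against 15407, 14288 and 14296 in the control libraries. The upregulated members made up 85.5% of the mean sum in the overexpressing flies and 46.7% in the control flies. The remaining members had a mean sum of 6989 ± 514 in the overexpressing flies and 7817 ± 206 in the control flies (SD, n = 3 each). This sum was lower in every overexpressing library, at 7582, 6674 and 6712, than in any control library, at 7632, 7781 and 8039. The members that rose had been taken out by their calls in these same data. That choice by itself favours a lower sum in the overexpressing flies, so the order of the libraries is no separate result. Of all tested genes, 23.3% had every overexpressing library below every control library. Cpr65Au, which averaged 1726 against 2516 normalized counts, made up most of the difference between the mean sums.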
